A study of Saccharomyces cerevisiae with 9 samples.

Results

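The genes described are 10 genes of Saccharomyces cerevisiae for the synthesis of isoleucine, valine and leucine: ILV1, ILV2, ILV3, ILV5, ILV6, BAT1, BAT2, LEU1, LEU4 and LEU9. They were taken by gene name from tables of transcript 3′ ends, in which 6516 genes are listed in all. LEU2, which also belongs to the pathway, was left out because it serves as a strain marker. All 10 were listed in the first 2 groups described next and 9 in the last, where LEU9 was not listed.

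The data come from direct RNA sequencing on the Oxford Nanopore platform, which reads an RNA molecule from its poly(A) tail and so marks its 3′ end. There were 9 libraries in 3 groups of 3, all in the strain HHY168 fpr1delta::hphMX4 and all treated with rapamycin for 2 h. The group labelled WT carried no tagged target, Bdp1AA carried BDP1-FRB::kanMX6, and Bdp1AA_Rna15AA, called the double depletion below, carried BDP1-FRB::kanMX6 and RNA15-FRB::His. Anchor away removes an FRB-tagged protein from the nucleus when rapamycin ties it to an exported anchor protein. Bdp1 is a subunit of TFIIIB, which places RNA polymerase III at tRNA genes, and Rna15 is an RNA-binding subunit of the cleavage factor that acts in mRNA 3′ end formation. Rapamycin was present in every group, so no comparison here sets treated against untreated cells.

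Isoleucine and valine are made in mitochondria by a shared set of enzymes, and leucine branches off from the last keto acid of the valine route. Many of these genes are textbook targets of Gcn4, the activator of amino acid synthesis genes whose own mRNA is controlled mainly in translation. Several are also controlled by Leu3, which becomes an activator when the leucine intermediate alpha-isopropylmalate accumulates.

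Each group is a single column in which its 3 libraries are pooled, so the spread between libraries is unknown and no test between groups was possible. Intervals are exact, at the 95% level, and describe the counting of reads alone. The unit is a signal, a number of read ends that was scaled in a way the sources used here leave unstated. Ends downstream of genes amounted to 22172295 reads in the group labelled WT, 14160864 in Bdp1AA and 7050919 in the double depletion, so the last group is the shallowest. Values are relative within each table, and fewer cells and less RNA per cell cannot be told apart in them. BDP1 ends were listed in the group labelled WT alone. RNA15 had no downstream end in the double depletion, where 382 reads ended inside the gene. FPR1, deleted in all strains by the labels, was nevertheless listed in the group labelled WT with 158 reads and in neither other group. Every direction drawn against the group labelled WT below rests on a group whose FPR1 ends go against its label. Whether rapamycin acted alike in all groups was not tested.

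In the reference genome R64, 4 of the 10 genes lie before a tandem gene by less than 400 nt: ILV1 (YER086W, chromosome V, 328477 to 330207, plus strand), ILV6 (YCL009C, chromosome III, 104619 to 105548, minus strand), BAT2 (YJR148W, chromosome X, 705744 to 706874, plus strand) and LEU4 (YNL104C, chromosome XIV, 424895 to 426754, minus strand). Their gaps to the next gene are 368 nt to AIM10, 268 nt to SGF29, 285 nt to YJR149W and 399 nt to INP52. Another 4 have a longer gap to a tandem gene: ILV2 (YMR108W, chromosome XIII, 484084 to 486147, plus strand) with 439 nt to MYO5, LEU9 (YOR108W, chromosome XV, 523027 to 524841, plus strand) with 436 nt to INP53, ILV5 (YLR355C, chromosome XII, 838066 to 839253, minus strand) with 708 nt to TAL1, and BAT1 (YHR208W, chromosome VIII, 517532 to 518713, plus strand) with 723 nt to CRG1. The last 2 face a convergent gene: ILV3 (YJR016C, chromosome X, 464451 to 466208, minus strand) at 197 nt from YJR015W, and LEU1 (YGL009C, chromosome VII, 476313 to 478652, minus strand) at 243 nt from MPO1. No tRNA gene lies near their ends: the nearest downstream on the chromosome is 13646 nt past ILV6, and BAT1 and BAT2 have none before the chromosome end. BAT1 and BAT2 share 72.5% of aligned bases with a longest identical run of 17 nt, and LEU4 and LEU9 share 81.2% with a longest run of 41 nt.

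The 500 nt before each start codon were searched on both strands for the Gcn4 site TGACTC, its longer form TGACTCA, which always holds the shorter one, and the Leu3 site CCGGNNCCGG. The shorter Gcn4 letters were found in 8 of the 10 promoters, against 12.7% of 6000 coding gene promoters, and the longer form in 7 of 10, against 4.0%. The Leu3 letters were found in 4 of 10, those of ILV2, ILV5, BAT1 and LEU1, against 0.267%. ILV2 held no Gcn4 letters and BAT2 held neither motif. The stretches around the matches are shown for genes that differ in what they hold, with the matches in capitals and RefSeq R64 coordinates, read 5′ to 3′ on the gene's own strand. BAT1 (chrVIII:517346-517409, plus) and LEU1 (chrVII:478845-478968, minus) hold both kinds of site, ILV2 (chrXIII:483601-483640, plus) the Leu3 letters alone, and ILV6 (chrIII:105678-105713, minus), LEU4 (chrXIV:426835-426870, minus) and LEU9 (chrXV:522755-522790, plus) the Gcn4 letters alone.
BAT1: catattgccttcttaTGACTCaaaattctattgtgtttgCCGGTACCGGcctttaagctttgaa
LEU1: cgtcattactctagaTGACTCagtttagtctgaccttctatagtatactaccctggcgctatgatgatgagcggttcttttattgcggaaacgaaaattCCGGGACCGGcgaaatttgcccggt
ILV2: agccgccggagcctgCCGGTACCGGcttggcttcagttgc
ILV6: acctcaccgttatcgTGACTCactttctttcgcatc
LEU4: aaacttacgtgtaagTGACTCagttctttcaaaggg
LEU9: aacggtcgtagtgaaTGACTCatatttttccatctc
These letters are matches and not measured binding. Among the paralog pairs, BAT1 and BAT2 differ in them, while LEU4 and LEU9 both hold TGACTCA, LEU4 at 101 nt and LEU9 at 257 nt before the start codon.

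Bdp1AA against the group labelled WT asks how the pathway's transcripts stood after Bdp1 was removed. The 10 genes together held 0.333% of all downstream signal in the group labelled WT and 0.832% in Bdp1AA. At a difference of 2-fold from the median gene, 8 of the 10 were higher and none was lower. Over all 4544 genes with at least 60 reads in both groups, 6.27% were higher and 9.86% lower. The median log2 ratio of the 10 was 1.20, where the median of all genes is 0 by construction after a centre of −0.51 was subtracted. The 2 that were not called were BAT2 and LEU9.

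**Figure D1:**
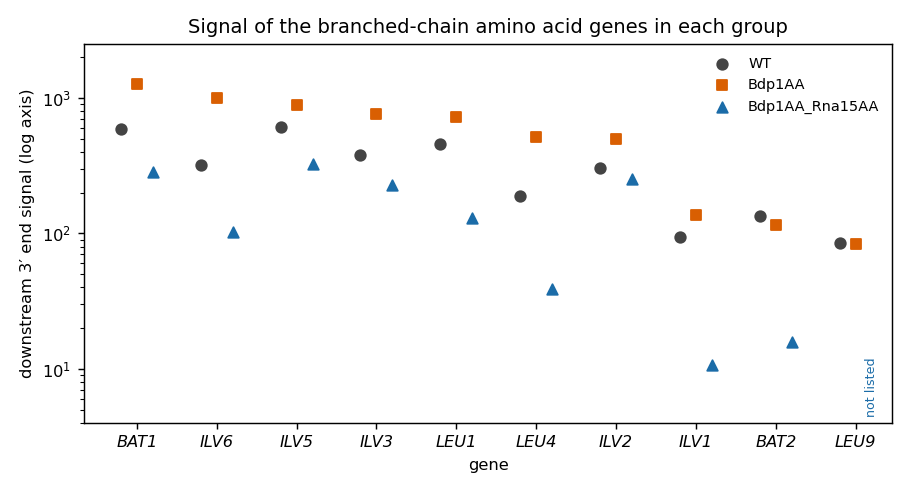
Downstream 3′ end signal of each gene (log axis) in WT (circles), Bdp1AA (squares) and the double depletion (triangles), each point 1 pooled group, on the deposited scale before centring. The Bdp1AA square is the highest of its gene for 8 genes, the WT circle is above it for BAT2, both lie at nearly the same height for LEU9, and the double depletion is the lowest wherever it was listed.

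The entry to isoleucine is Ilv1, the threonine deaminase, and its signal was 94.8 in the group labelled WT, 137 in Bdp1AA and 10.8 in the double depletion. On the centred scale its log2 ratio of Bdp1AA against the group labelled WT was 1.04 (0.96 to 1.13), so its interval reached below the 2-fold line. Ilv2 and Ilv6 are the catalytic and the regulatory subunit of acetohydroxyacid synthase, the first enzyme shared by the isoleucine and valine routes. ILV2 signal was 303, 494 and 254 in the same order of groups. ILV6 signal was 322, 1004 and 103. The regulatory subunit stood farther above WT, with a log2 ratio of 2.15 (2.11 to 2.19), or 4.44-fold, than the catalytic one, with 1.22 (1.17 to 1.26), or 2.33-fold, and their intervals did not overlap. Centred on genes of like length the gap was smaller, with 1.97 for ILV6 and 1.71 for ILV2.

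Ilv5, the reductoisomerase that also takes part in mitochondrial DNA maintenance, and Ilv3, the dihydroxyacid dehydratase, act after the synthase. ILV5 signal was 613 in the group labelled WT, 890.0 in Bdp1AA and 327 in the double depletion. ILV3 signal was 381, 765 and 229.5. Both were called higher in Bdp1AA, ILV3 by a log2 ratio of 1.52 (1.48 to 1.56) and ILV5 by 1.05 (1.02 to 1.08), the latter close to the 2-fold line.

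Leu4 and Leu9 are the alpha-isopropylmalate synthases that open the leucine branch, and Leu1 is the isomerase that follows them. LEU4 signal was 190.3 in the group labelled WT, 517.5 in Bdp1AA and 38.6 in the double depletion. LEU9 signal was 84.6 and 83.9 in the first 2 groups. The copies differed in Bdp1AA against the group labelled WT: the log2 ratio was 1.96 (1.90 to 2.01) for LEU4 and 0.50 (0.40 to 0.60) for LEU9. On the deposited scale LEU9 differed by −0.01 and its higher value comes from centring alone. LEU1 signal was 455, 726 and 131 in the 3 groups, with a log2 ratio of 1.19 (1.15 to 1.22) in Bdp1AA.

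Bat1 and Bat2 are the branched-chain transaminases, Bat1 in mitochondria and Bat2 in the cytosol, and Bat2 is known mainly for breakdown of these amino acids. BAT1 signal was 591 in the group labelled WT, 1267 in Bdp1AA and 282 in the double depletion. BAT2 signal was 134.5, 116 and 15.9. The mitochondrial gene was higher in Bdp1AA by a log2 ratio of 1.61 (1.58 to 1.64). The cytosolic gene had 0.30 (0.22 to 0.38) on the centred scale and −0.21 on the deposited scale, so its sign depended on the centring. With positions listed under a single gene only, it had −0.73 on the centred scale, but that setting was unequal between the groups. It left out the end at 63 nt in the group labelled WT. In Bdp1AA, which lists positions from 2 reads up, it left out those at 48, 61, 62, 63, 65 and 299 nt. This value therefore gives no direction for BAT2. Among the compared genes ILV6 ranked 62 from the top, LEU4 81, BAT1 124 and ILV3 138, while LEU9 ranked 941 and BAT2 1458. The only member whose promoter window held neither motif, BAT2, had the smallest ratio, but LEU9, which holds TGACTCA, was not called either.

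The calls depended on the scale. On the deposited scale without centring, 4 of the 10 genes reached 2-fold, with log2 ratios of 1.64 for ILV6, 1.44 for LEU4, 1.10 for BAT1 and 1.01 for ILV3, and the same number passed when positions were kept down to each table's own minimum. Centring on the 200 coding genes nearest in length left 8 genes higher, with values from 1.12 for ILV5 to 2.33 for LEU4. Over positions listed in both groups alone 6 were higher, and ILV1 with 0.91 and ILV5 with 0.94 missed the 2-fold line.

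**Figure D2:**
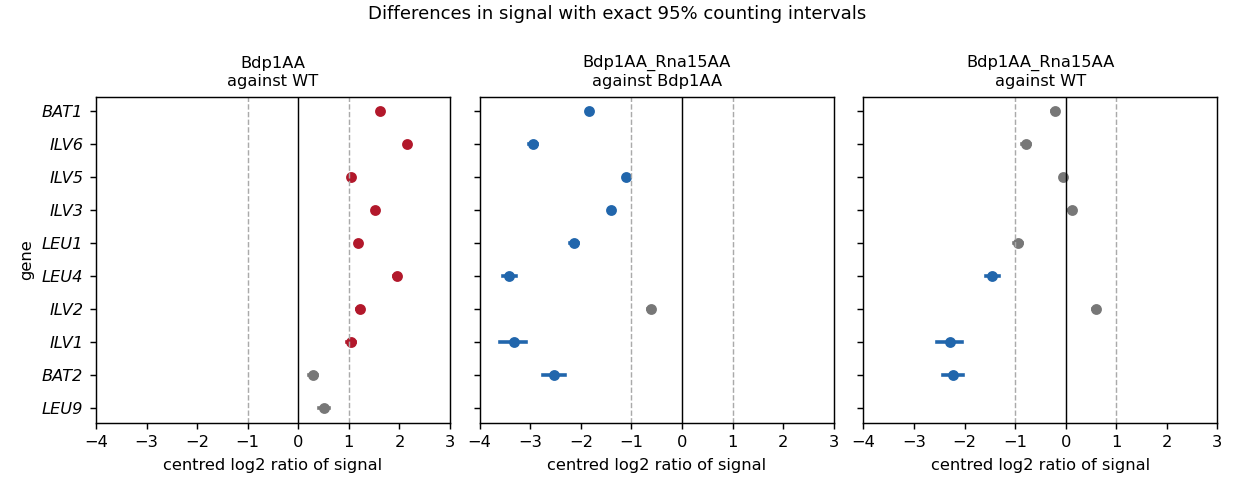
Centred log2 ratio of signal (x axis) of each gene (rows) in the 3 comparisons, with horizontal bars for exact 95% counting intervals, dashed lines at 2-fold, and red, blue and grey for higher, lower and not called. In Bdp1AA against WT the 8 red points lie between 1.04 and 2.15, and in the double depletion against Bdp1AA all but ILV2 lie below −1.

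The lists of related genes gave the surroundings of the pathway in Bdp1AA against the group labelled WT. Among 5 genes that supply threonine, the substrate of Ilv1, 2 were higher: HOM3, the aspartate kinase that opens the route, by 2.70 (2.62 to 2.78), and HOM2, the next enzyme, by 2.53 (2.50 to 2.56). The later genes had log2 ratios of 0.27 for HOM6, 0.80 for THR1 and 0.70 for THR4, none of them called. HOM3 and HOM2 thus exceeded every one of the 10 pathway genes. Of 2 further Leu3-regulated genes, OAC1, a mitochondrial oxaloacetate carrier that also transports isopropylmalate, was higher by 1.04 (0.98 to 1.10), and GDH1, a glutamate dehydrogenase, had 0.46. OAC1 signal was 201 in the group labelled WT and 290 in Bdp1AA, less than 2-fold on the deposited scale.

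Of the 9 listed regulators of the pathway and of amino acid signalling, 6 had enough reads to be compared, and none of these was called higher at the RNA level. LEU3 signal was 8.07 in the group labelled WT and 4.64 in Bdp1AA, with a log2 ratio of −0.29 (−0.67 to 0.08). GCN4 signal was 716 and 768, with 0.61 (0.58 to 0.64), most of which comes from the centre of −0.51. These are RNA amounts and say nothing of the Gcn4 protein. Of 6 regulators compared, GCN1, which helps activate the Gcn2 kinase, was lower with −2.06 (−2.25 to −1.88), and none was higher. List values, that of GCN1 among them, were not centred on genes of like length. How far they depend on gene length was not tested. Among the 10 pathway genes that setting moved LEU1 (2340 nt) from 1.19 to 1.87 and ILV6 (930 nt) from 2.15 to 1.97.

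Transport and breakdown gave mixed values. Of 6 permeases that carry branched-chain amino acids, TAT1 was lower with −1.02 (−1.18 to −0.87) and none was higher. Of 7 genes of breakdown to fusel alcohols, ARO10, a decarboxylase of the keto acids, was higher by 2.51 (2.40 to 2.63), while the alcohol acetyltransferase genes ATF2 and ATF1 were lower with −1.40 (−1.70 to −1.12) and −1.0 (−1.34 to −0.68). CHA1, the catabolic serine and threonine deaminase and a counterpart of Ilv1, was lower with −1.40 (−1.58 to −1.21), which made it the only gene called among 4 of its list. In the pantothenate branch, which draws on the valine keto acid, 1 of 5 genes was called, the pantothenate kinase gene CAB1 with 1.06 (0.96 to 1.17). CAB1 signal was 59.1 in the group labelled WT and 86.6 in Bdp1AA, less than 2-fold on the deposited scale. None of the 3 compared aminoacyl-tRNA synthetase genes for these amino acids was called. Over all genes compared, 6.27% were higher and 9.86% lower. The medians of the lists ran from −0.18 for the fusel alcohol list to 0.80 for threonine supply, against 1.20 for the 10 pathway genes.

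**Figure D3:**
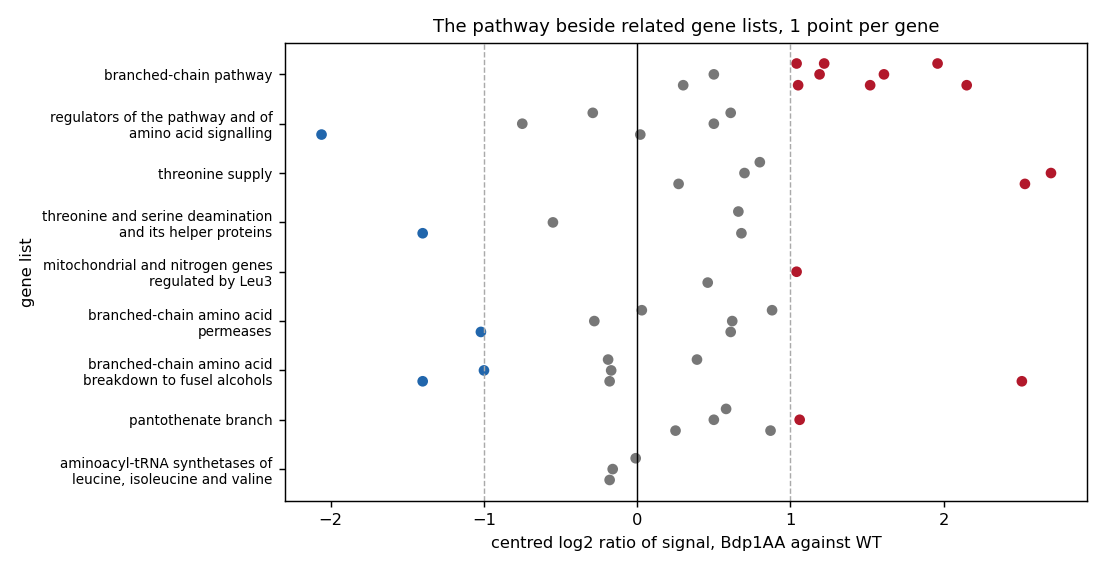
Centred log2 ratio of signal in Bdp1AA against WT (x axis) for each compared gene (points) of the pathway and 8 related lists (rows), with dashed lines at 2-fold and red and blue for higher and lower. The pathway has 8 of 10 points past the upper line, threonine supply 2 of 5, and the synthetase list none of 3.

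Adding the depletion of Rna15 to that of Bdp1 left the pathway's transcripts far below Bdp1AA. The summed signal of the 10 genes was 6001 in Bdp1AA and 1392 in the double depletion, or 0.832% and 0.260% of all downstream signal. Of the 9 genes compared, 8 were lower by 2-fold and none was higher. Over all 2936 genes compared, 25.1% were lower and 25.1% were higher, so calls of this size were common in this comparison. The median log2 ratio of the 9 genes was −2.14.

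The largest differences were those of LEU4 with −3.41 (−3.54 to −3.28), ILV1 with −3.33 (−3.59 to −3.09) and ILV6 with −2.94 (−3.02 to −2.86). BAT2 with −2.53 (−2.74 to −2.32) and LEU1 with −2.14 (−2.21 to −2.06) followed, then BAT1 with −1.83 (−1.88 to −1.78), ILV3 with −1.40 (−1.45 to −1.34) and ILV5 with −1.11 (−1.15 to −1.06). ILV2, the catalytic subunit gene, was the exception with −0.62 (−0.68 to −0.56). ILV5 missed 2-fold, with −0.87, when positions were kept down to each table's own minimum, and ILV2 passed it, with −1.12, when centred on genes of like length. The subunit genes of the same enzyme therefore differed in opposite order from Bdp1AA against the group labelled WT: ILV6, the higher there, was the lower here. These comparisons share the Bdp1AA group, and each value is given for itself.

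LEU9 had no listed end in the double depletion. Its most used end in Bdp1AA, at 92 nt past the gene, had a signal of 27.6, where the lowest signal listed in the double depletion was 0.834. In the sparse genes of that group, positions under the listing minimum are lost, and few reads spread over many positions lose most. When only positions listed in both groups were summed, ILV1 had −2.43, LEU4 −2.99 and ILV6 −2.73, and ILV2 −0.76. In that setting BAT2 could not be compared and ILV2 alone of the other 8 genes stayed above −1.

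Against the group labelled WT, the double depletion had 3 of 9 genes lower and none higher, beside 24.6% lower and 26.1% higher over 3005 genes. The lower ones were ILV1 with −2.28 (−2.54 to −2.04), BAT2 with −2.22 (−2.43 to −2.02) and LEU4 with −1.45 (−1.58 to −1.31). ILV5 with −0.05, ILV3 with 0.12 and BAT1 with −0.21 lay close to the median gene. LEU1 with −0.95 and ILV6 with −0.79 were lower and ILV2 with 0.60 was higher by less than 2-fold. On the deposited scale, before the centre of −0.85 was subtracted, ILV2 had −0.25, so its sign depended on the centring, and 6 of 9 genes were lower by 2-fold. GCN4 stood at 1.81 (1.78 to 1.84) in this comparison, with a signal of 1388 in the double depletion against 716, less than 2-fold before centring. The threonine supply genes had 0 of 5 called against the group labelled WT, with HOM2 at 0.82 and HOM3 at 0.36.

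The 3′ ends of the pathway genes differed little when Bdp1 alone was depleted. No gene of the 10 differed by 20 nt in its mean end position or by 20 percentage points in the use of end clusters. Over all genes compared, 2.33% were distal, 0.902% were proximal and 1.56% differed in cluster use. At the common minimum the largest difference was that of LEU9, whose mean end was at 129.5 nt past the gene in the group labelled WT and at 124 nt in Bdp1AA. LEU9 has a pair of end clusters, and the near one, at 70 to 117 nt, held 53.9% (51.7 to 56.1) of reads in the group labelled WT and 58.6% (56.2 to 61.0) in Bdp1AA. Kept down to each table's own minimum, the LEU9 shares were 52.3% (50.1 to 54.5) and 55.8% (53.5 to 58.0), and these intervals overlapped. With each table's own minimum BAT2 was called distal, by 31.3 nt. ILV2 moved by −2.84 nt, and its end at 149 nt held 23.5% of its reads in the group labelled WT and 31.8% in Bdp1AA.

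The usual ends are shown for genes whose use of them, or of far ends, differed in the double depletion. The following stretches of 30 nt end at the last aligned base, which is in capitals, in RefSeq R64. ILV2 is shown at its 3 main ends, 149 nt (chrXIII:486267-486296, plus), 165 nt (chrXIII:486283-486312, plus) and 181 nt (chrXIII:486299-486328, plus) past the gene. LEU4 is shown at 129 nt (chrXIV:424766-424795, minus), ILV5 at 222 nt (chrXII:837844-837873, minus) and BAT2 at its usual end, 63 nt (chrX:706908-706937, plus), and its far end, 1899 nt (chrX:708744-708773, plus).
ILV2 at 149 nt: tatatactttatatatttttttctaaaaaA
ILV2 at 165 nt: ttttttctaaaaaactaatgacggctaaaA
ILV2 at 181 nt: aatgacggctaaaattaagtcatagatgaA
LEU4 at 129 nt: acggatgtctaaattagaattacgttttaA
ILV5 at 222 nt: attcaatgaacaatctaattaaatcgaaaA
BAT2 at 63 nt: ttaaaaagaataaaactagagcgttttttC
BAT2 at 1899 nt: tattaaaattaagagaattcaattattttA
Of these 7 stretches, 6 end in A, a base that cannot be told from the first base of the poly(A) tail. The letters TATATA, the known yeast efficiency element of 3′ end formation, occur on the transcript strand within 100 nt before the main WT end of ILV2, ILV3, ILV5, ILV6 and LEU9, and before 49.5% of the main ends of 5041 coding genes.

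Within the usual end region, ILV2 and LEU4 moved to later positions in the double depletion. Of the ILV2 reads at its 3 main ends, the last one, at 181 nt, held 24.6% (23.4 to 25.8) in the group labelled WT, 18.6% (17.8 to 19.5) in Bdp1AA and 55.0% (52.5 to 57.4) in the double depletion. The nearest of the 3, at 149 nt, held 31.9%, 41.7% and 13.9% in the same order. The order of use of the 3 ends was therefore the reverse of that in Bdp1AA, and the intervals of the 3 groups did not overlap at either end. LEU4 held 38.1%, 39.9% and 67.0% of the reads of its 3 main ends at the last of them, 129 nt. ILV3 had its last main end, at 172 nt, at 18.3%, 16.3% and 29.8%. At LEU1 the most used end was at 162 nt in the first 2 groups and at 165 nt in the double depletion.

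The most used end was the same position in all 3 groups at ILV1, ILV3, ILV5, ILV6, BAT1 and LEU4. ILV5 held 52.7%, 51.4% and 48.2% of all its reads at 222 nt, and BAT1 held 38.6%, 38.4% and 49.8% at 156 nt. Over positions listed in both groups alone, the double depletion against Bdp1AA had a median shift of 3.12 nt over the pathway genes and 1.58 nt over all genes. In that setting 26.8% of all genes were distal by 5 nt or more, and of the pathway genes ILV2 moved by 12.35 nt and LEU4 by 10.44 nt.

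**Figure D4:**
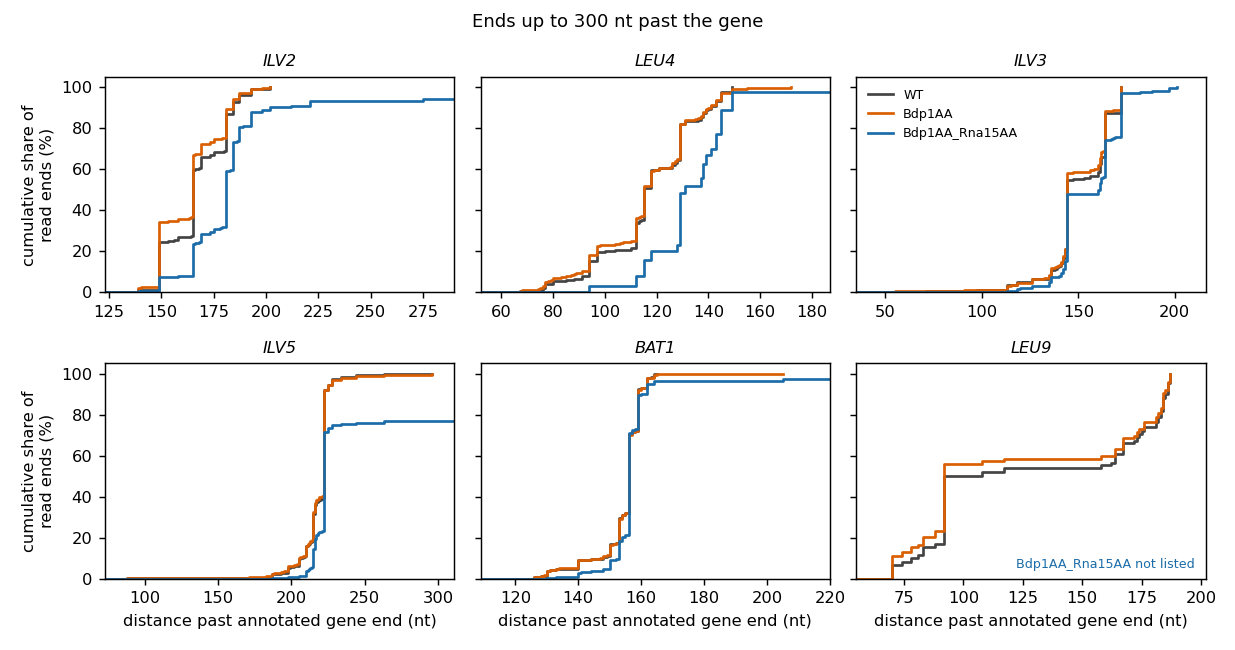
Cumulative share of a gene's downstream read ends (y axis, %) by distance past the annotated gene end (x axis, nt, up to 300 nt) in WT (grey), Bdp1AA (orange) and the double depletion (blue) for 6 genes. The grey and orange curves lie close together, except that the orange curve rises earlier for ILV2 and LEU9. The blue curves of ILV2 and LEU4 lie to the right, and the blue curve of ILV5 levels off below 80 because 23.3% of its reads end farther on.

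Summed over the genes, ends far past them took up more of the reads in the double depletion than in either other group. Of the 9 genes compared with Bdp1AA, 7 had a mean end at least 20 nt more distal and none was proximal, beside 42.2% distal and 1.29% proximal over all genes. In cluster use 2 of 9 differed, ILV5 and BAT2, beside 27.1% of all genes. Against the group labelled WT 6 of 9 were distal, beside 42.0% distal and 1.20% proximal, and the same 2 differed in cluster use, beside 26.7%. When only ends up to 300 nt were used, no gene was called distal, and BAT2 had too few reads there to be compared. LEU4, at the 20 nt line with a shift of 20.36 nt, moved mostly within its usual region: over ends up to 300 nt its mean was at 132 nt in the double depletion and at 116 nt in Bdp1AA. ILV1 and ILV3 were not called, with shifts of 6.49 and 5.58 nt.

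More than 300 nt past the gene and at the common minimum, 7 of 9 genes had ends in the double depletion, with 1652 of 18351 reads, against 1 of 10 genes, BAT2, in each other group. With each table's own minimum, Bdp1AA, which lists positions from 2 reads up, had such ends at 4 of 10 genes. Beside BAT2 these were BAT1 with 17 reads at 349 to 685 nt, ILV6 with 9 reads at 2517 to 2738 nt and ILV5 with 5 reads at 302 nt, at most 5 reads a position. At the common minimum the shares of coding genes with any such end were 11.9% in the group labelled WT, 10.9% in Bdp1AA and 39.1% in the double depletion. These are coding genes with at least 60 reads. A gene with more reads can more easily have a far end listed, and the genes were not matched for reads. The mean share of a coding gene's reads at such ends was 6.72%, 6.19% and 13.45% in the same order, with a median of 0.0 in each group. Per gene the share in the double depletion was 89.5% (84.6 to 93.3) for BAT2, 23.3% (22.1 to 24.6) for ILV5, 6.27% (5.17 to 7.52) for LEU1, 5.43% (4.69 to 6.25) for ILV2, 4.04% (3.06 to 5.23) for ILV6, 2.77% (2.27 to 3.35) for BAT1 and 2.16% (1.08 to 3.83) for LEU4. ILV1, with 142 reads, and ILV3, with 3027, had no end listed there. Positions under the listing minimum are not seen, which weighs most on ILV1.

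**Figure D5:**
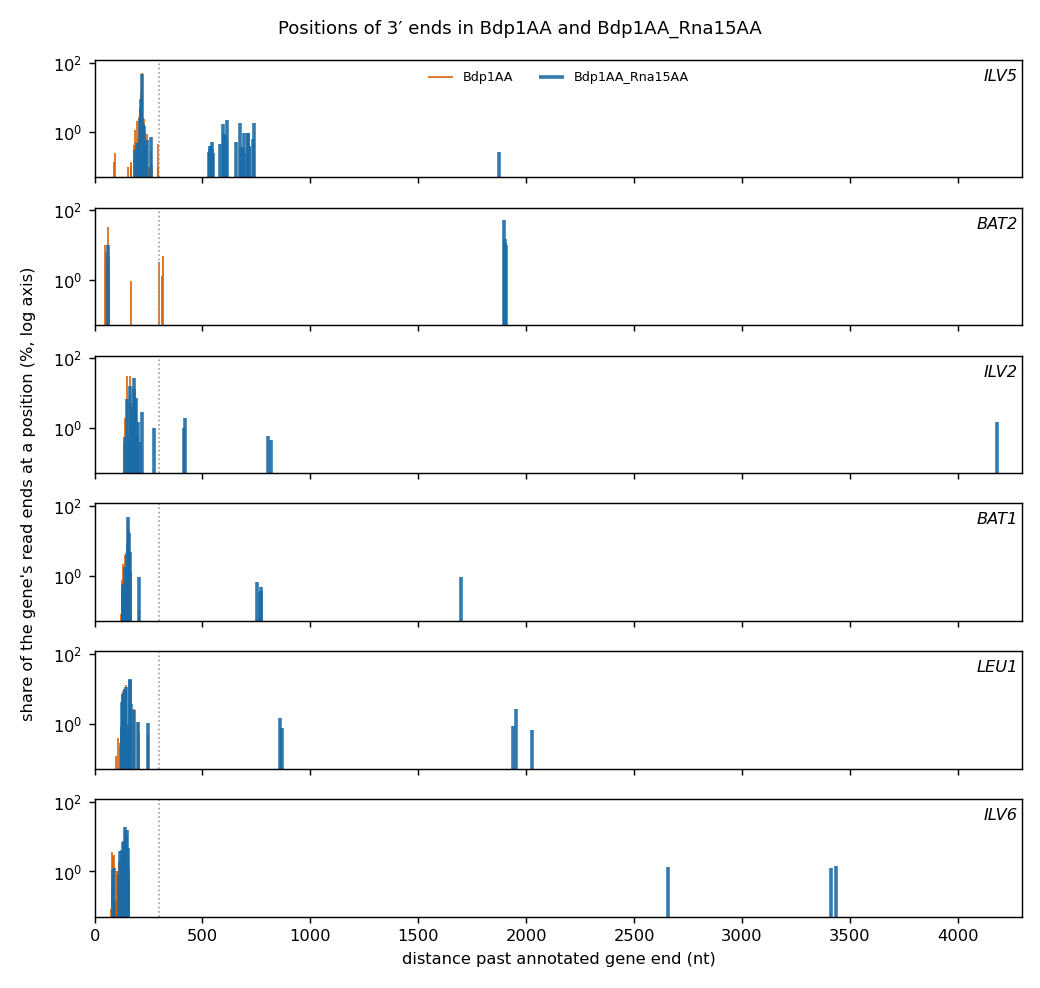
Share of a gene's downstream read ends at each listed position (y axis, %, log axis) by distance past the annotated gene end (x axis, nt) in Bdp1AA (orange) and the double depletion (blue) for 6 genes, with a dotted line at 300 nt. Beyond the line, at the common minimum, the orange bars are those of BAT2 at 311 and 315 nt, while blue bars reach 1874 nt for ILV5 and 4182 nt for ILV2.

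ILV5 had the most reads at far ends, 1005 of 4312. They lay in the gap before TAL1, with 123 reads at 528 to 548 nt, 401 at 579 to 612 nt and 200 at 656 to 706 nt, and 269 more at 709 to 737 nt, inside the start of TAL1. Only 12 reads, at 1874 nt, used an end that was also listed under TAL1, where 402 reads were listed. Most ILV5 far ends thus lay before or at the start of the next gene and not at its own 3′ end. In Bdp1AA, where positions were listed from 2 reads up and ILV5 had 17875 reads, the farthest ILV5 end was at 302 nt.

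BAT2 gave the other pattern, in which the far ends coincided with those of the next gene. In the group labelled WT 88.5% (87.3 to 89.6) of its reads ended at 48 to 69 nt, and in Bdp1AA 89.5% (88.2 to 90.7). A smaller part, 9.70% and 9.57%, ended at 294 to 343 nt, just inside the start of YJR149W. In the double depletion 22 of 210 reads ended at 63 nt, and the other 188 ended at 1899 to 1908 nt, 399 to 408 nt past the end of YJR149W. At the same positions 361 reads were listed under YJR149W. YJR149W signal was 1.03 in the group labelled WT, 1.22 in Bdp1AA and 30.9 in the double depletion.

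The BAT2 far end was not entirely new to the double depletion. Without the common minimum, Bdp1AA listed 29 of 2598 BAT2 reads, or 1.12% (0.749 to 1.60), at 1899 to 1913 nt. In signal these were 1.48 in Bdp1AA and 14.3 in the double depletion, while the signal at 40 to 100 nt was 107 and 1.67. These values show both a higher signal at the far end and a lower signal at the usual end. The sources used here do not say how reads that span several genes were assigned, and a position listed under BAT2 and YJR149W may hold the same reads for both.

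At ILV2 and BAT1 most far reads lay before or inside the next tandem gene, and a smaller part reached its end. ILV2 had 99 reads at 415 to 421 nt, before MYO5, 34 at 804 to 818 nt, inside MYO5, and 49 at 4182 nt, where MYO5 had 345 reads listed. BAT1 had 69 reads at 752 to 773 nt, inside the start of CRG1, and 34 at 1698 nt, where CRG1 had 166 listed. The far ends of ILV6 lay beyond its next gene, with 18 reads at the end of GBP2 and 37 at the ends of YCL012C, 2659 to 3436 nt past ILV6. Each of these ends was also listed under the genes between, with more reads the nearer the gene lay: at 3436 nt 20 reads were listed under ILV6, 32 under SGF29, 91 under GBP2 and 217 under YCL012C. LEU1, which faces a convergent gene, had 38 reads at 857 to 867 nt, past MPO1 on the other strand, and 70 reads at the ends of SCL1, where SCL1 had 3177 listed. LEU4 had 11 reads at 344 nt, before INP52, at the lowest number of reads that table lists.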

How the data were processed

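Each of the 3 deposited tables gives, for each gene and 3′ end position, a signal that the authors scaled, with 3 libraries pooled in 1 column. The genome build is R64 per the submitters' processing notes. For the aligner and the gene assignment, the sources used here name no tool. All values (100%, within 0.001 read) were whole multiples of 0.0429 (WT), 0.0510 (Bdp1AA) and 0.0758 (double depletion), taken as 1 read. Positions under a common minimum signal of 0.83413, or 20, 17 and 11 reads, were left out, since the tables list positions from 11, 2 and 11 reads up. This kept 98.1%, 94.4% and 100% of the downstream signal.

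Log2 ratios of downstream signal were centred on the median gene, by −0.51, −0.34 and −0.85 in the order of the comparisons. Genes needed 60 reads in both groups and were called at 2-fold, 20 nt, or 20 percentage points of reads in other clusters (ends within 25 nt, at least 10 reads). The planned tests per library could not be made because the libraries are pooled, so counting intervals (Clopper-Pearson for shares) replaced them. The procedure was run on simulated reads drawn from the Bdp1AA ends, without spread between libraries and with changes set only in well-covered genes. The simulation therefore says nothing of that spread or of changes in sparse genes. The members, the lists and the rule for named genes (all 10 genes, called list genes, LEU3, GCN4 and strain genes) were chosen with earlier results of these data known, and the stretches of far ends after their positions were seen. Python 3.11.15, pandas 2.3.3, scipy 1.17.1 and Biopython 1.88 were used.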

Additional observations from a re-analysis of the deposited data

How the results depend on the processing

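No paired analysis was possible because the 3 libraries of each group share 1 column, and no library could be left out. For Bdp1AA against WT, 4 genes instead of 8 were higher on the deposited scale and 4 with the minimum as deposited, and 1 instead of 0, BAT2, was distal with the minimum as deposited. For the double depletion against Bdp1AA, 1 gene instead of 7 was distal by median position, 4 with ends counted under the nearest gene only, and 0 with ends up to 300 nt or with positions in both groups only. In cluster use 1 instead of 2 differed with the minimum doubled and 1 with the nearest gene only. Against WT, 6 instead of 3 were lower on the deposited scale, and 1 (median), 3 (nearest gene), 0 (up to 300 nt) and 0 (positions in both) instead of 6 were distal, with 1 instead of 2 in cluster use with the minimum doubled and 1 with the nearest gene only. By construction, ends up to 300 nt leave all far ends out, and positions in both groups those not listed in the other group. Likewise the deposited scale leaves out the subtracted centre, and the nearest gene only leaves out ends also listed under a nearer gene. The cause of the other changes was not tested. No called value changed sign. The positions in both groups and those of a single gene were settings chosen after seeing the data. Depth limits ILV1 with 142 reads and BAT2 with 210 in the double depletion.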

Other observations

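Low numbers of reads ended inside the members on the minus strand, the strand for which the tables list such ends. In Bdp1AA, which lists positions from 2 reads up, there were 32 reads inside ILV3, 50 inside ILV5, 56 inside ILV6, 44 inside LEU1 and 25 inside LEU4, between 0.206% and 0.299% of each gene's reads. The double depletion listed none, and its table starts at 11 reads a position. The group labelled WT listed 100 reads inside ILV6, near its start codon at positions also listed under the upstream gene STP22, and 12 inside LEU4.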
